A study of Homo sapiens with 6 samples.

Results

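The genes described here are INSIG1, SREBF1, SREBF2, ACLY, ACACA, FASN, SCD, FADS1 and FADS2, which serve fatty acid synthesis and the sensing of sterols. They were taken by name from the count table of a ribosome profiling study, 9 of 60648 genes and of 19954 protein-coding ones. The study used A549, an established human line from a non-small cell lung cancer, and an shRNA against METTL16, which methylates RNAs such as U6 snRNA and MAT2A mRNA. Its 3 conditions were control shRNA cells in amino acid starvation medium, METTL16 shRNA cells in the same medium, and METTL16 shRNA cells in complete medium. All cells spent 2 h in their medium and were given cycloheximide, a drug that halts elongating ribosomes, for 5 min. Each condition gave 1 library of input RNA and 1 of ribosome footprints, the RNA pieces that ribosomes shield from RNase (fed control shRNA cells were not analysed here). The knockdown lines were stable, and whether a line is a clone or a pool is not given in the sources used here.

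Cells make saturated fat from citrate in a chain of cytosolic enzymes: ACLY cuts citrate to acetyl-CoA, ACACA carboxylates it to malonyl-CoA, and FASN builds palmitate from both. SCD then places a double bond in saturated acyl chains, while FADS1 and FADS2 desaturate dietary polyunsaturated fatty acids. The genes for these enzymes are known targets of the SREBP transcription factors, which SREBF1 and SREBF2 encode; INSIG1, itself an SREBP target, keeps their precursors in the endoplasmic reticulum while sterols are plentiful.

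In these libraries SCD had the most reads of the group, and INSIG1 and FASN each departed from the common pattern. SCD RNA was 2.64 times and SCD footprints 2.95 times as high in starved METTL16 shRNA cells as in starved control cells, on a scale set by the bulk of genes. INSIG1 footprints were 3.0 times as high in starved as in fed METTL16 shRNA cells, where the footprints of the other 8 genes were lower in starved cells. FASN had more RNA and fewer footprints in starved than in fed METTL16 shRNA cells, so its footprints per RNA were 3.20 times as high in complete medium.

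The promoters of INSIG1, SREBF2 and SCD are shown. SCD had the most reads of the group, and INSIG1 departed from its common footprint pattern. SREBF2 has the only match to the sterol regulatory element searched for. Each run is the 250 bases before the RefSeq start of the gene in GRCh38.p14, read 5′ to 3′ on the gene's strand, which is the plus strand for all of them. Capitals mark matches on either strand to TCACNCCAC (a core of the sterol regulatory element that SREBPs bind), CCAAT (the NF-Y box), GGGCGG (the Sp1 box) or CACGTG (the E-box).
INSIG1 at chr7:155297628-155297877: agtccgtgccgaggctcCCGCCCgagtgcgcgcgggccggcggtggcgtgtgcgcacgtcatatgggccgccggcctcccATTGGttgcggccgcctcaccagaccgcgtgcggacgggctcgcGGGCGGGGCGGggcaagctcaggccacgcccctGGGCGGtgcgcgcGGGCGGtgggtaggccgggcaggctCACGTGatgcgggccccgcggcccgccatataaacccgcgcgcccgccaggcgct
SREBF2 at chr22:41832855-41833104: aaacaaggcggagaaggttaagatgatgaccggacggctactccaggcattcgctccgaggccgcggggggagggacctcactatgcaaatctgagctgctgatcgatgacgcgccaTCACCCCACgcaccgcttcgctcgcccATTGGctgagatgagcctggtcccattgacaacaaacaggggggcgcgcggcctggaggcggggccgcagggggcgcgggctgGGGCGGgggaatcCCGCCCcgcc
SCD at chr10:100346983-100347232: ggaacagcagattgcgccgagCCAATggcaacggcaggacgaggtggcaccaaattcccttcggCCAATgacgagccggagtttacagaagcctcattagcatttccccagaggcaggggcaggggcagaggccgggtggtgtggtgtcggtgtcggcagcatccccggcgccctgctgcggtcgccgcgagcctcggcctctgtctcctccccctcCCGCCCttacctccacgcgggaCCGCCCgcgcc

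RefSeq windows were at hand for 8 of the 9 genes, 12 windows in all. The sterol element core stood in 1 of the 12, that of SREBF2, where it began 133 bases before the start; 0.883% of the 35116 windows in the RefSeq table hold it. INSIG1 alone held the E-box, 55 bases before its start, against 6.34% of all windows. CCAAT was found in 7 of the 12 windows (32.0% of all windows) and GGGCGG in 10 of 12 (42.6% of all windows), and some GGGCGG matches overlap each other. By gene, CCAAT was found in 5 of 8 and GGGCGG in 8 of 8. Windows of the same gene can overlap, as those of ACLY do, so they are not independent. A match is only a match of letters, and sites outside these windows were not searched.

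Total counts ran from 465303 to 775676 in input RNA and from 518955 to 781831 in footprints. There are no replicates, hence no p-values, and differences are held against counting error alone. Levels are CPM, counts scaled to a common library total, after TMM scaling, which centres each assay on the bulk of its genes. The 95% intervals cover counting error only and leave out variation between cultures and libraries. They treat reads as independent molecules, which PCR reads are not, so they can be too narrow even for counting error. A log2 ratio was called where it reached 2-fold and its interval excluded 0, among protein-coding genes that averaged 30 counts or more in the 3 libraries of an assay (of both assays for their ratio); all 9 genes passed in both. METTL16 itself had 44 input counts in starved control cells, 9 in starved and 19 in fed METTL16 shRNA cells, and 60, 3 and 7 footprint counts, so the knockdown was visible in both assays. Small nuclear RNAs made up 5.98% of footprint counts in control cells, 14.1% in starved and 10.6% in fed METTL16 shRNA cells, and nuclear protein-coding genes 79.0%, 64.4% and 66.0%; the part of this in the results was not tested. The epithelial keratins KRT7, KRT8 and KRT18 had 276 to 1383 counts in every library, KRT19 had 5 to 28 and EPCAM 0 to 15, while the lung markers SFTPB and NKX2-1 were at 0 and SFTPC had 1 count in 1 library. Of other cell types' markers, 4 of 7 fibroblast genes had counts in each assay, with COL1A2 and PDGFRB at 0 throughout, and the list summed to 14.7 to 24.3 CPM in input RNA and 36.8 to 49.2 CPM in footprints. CD14 was the only one of 7 leukocyte and erythroid genes with any (5.25 to 13.2 and 21.7 to 47.7 CPM), with PTPRC at 0, beside 2909 to 3677 and 2896 to 4509.9 CPM for the 9 epithelial genes.

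The sign of many differences between starved METTL16 shRNA and control cells depended on the scaling. Under the scaling of the deposited TPM values, which divide by a sum that includes small RNAs, the median protein-coding gene itself was at -0.45 on the log2 scale in input RNA and at -1.06 in footprints. On that scale 4 of the 9 genes stayed above 0 in RNA (INSIG1, SREBF1, SCD and FADS1) and 3 in footprints (INSIG1, SREBF1 and SCD), and none reached 2-fold. The footprint interval of INSIG1 then included 0, at 0.12 (-0.17 to 0.42). The footprint ratios of FADS1, ACLY and FADS2, whose intervals lay wholly above 0 with TMM, were then -0.28 (-0.46 to -0.10), -0.56 (-0.74 to -0.38) and -0.50 (-0.63 to -0.36), and FASN was at -0.21. The ratios below are therefore relative to the other genes of the same library. Apart from the scaling, a difference in the share of expressing cells and one in RNA per cell cannot be told apart.

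As a share of all counts the 9 genes were lowest in control and highest in fed knockdown cells. They held 0.874% of input counts in starved control cells, 1.45% in starved METTL16 shRNA cells and 1.96% in fed METTL16 shRNA cells. In footprints the shares were 0.653%, 1.11% and 1.51% in the same order. SCD alone held 0.310%, 0.749% and 1.12% of input counts and 0.247%, 0.573% and 0.725% of footprint counts.

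**Figure D1:**
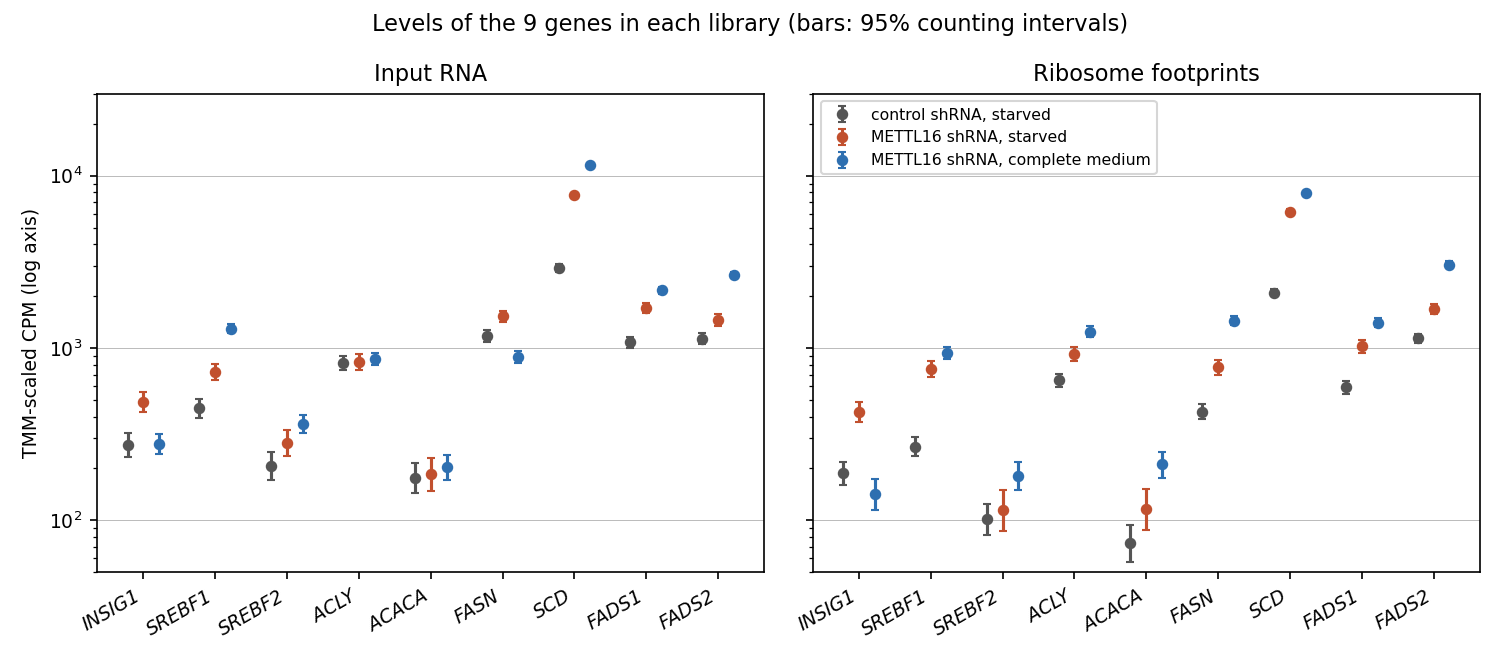
TMM-scaled CPM (log axis) of the 9 genes in input RNA (left) and ribosome footprints (right), 1 library per point, with 95% counting intervals. SCD lies highest in every library, and INSIG1 is the gene whose footprints are lowest in complete medium (142 CPM).

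INSIG1 (ENSG00000186480.13, chr7:155297878-155310235) encodes the sterol sensor's anchor in the endoplasmic reticulum. Its RNA stood at 273 CPM (156 counts) in starved control cells, 485 CPM (220 counts) in starved METTL16 shRNA cells and 278 CPM (208 counts) in fed METTL16 shRNA cells. The starved knockdown library was thus the high one, and the intervals of the other two overlap widely. Footprints were 187 CPM (173 counts), 426 CPM (205 counts) and 142 CPM (92 counts) in that order, with the starved knockdown again highest and the fed knockdown lowest. Against starved control cells the log2 ratio was 0.83 (95% interval 0.53 to 1.13) in RNA and 1.19 (0.89 to 1.49) in footprints. With total counts as the scale the footprint ratio was 0.84, short of 2-fold. Against fed METTL16 shRNA cells it was 0.80 (0.52 to 1.08) in RNA and 1.59 (1.23 to 1.96) in footprints, where 28 of 3357 protein-coding genes had a higher ratio. INSIG2, the related anchor, had only 7 to 15 counts per library and was not compared.

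SREBF1 (ENSG00000072310.18, chr17:17811334-17836986) encodes SREBP-1, the family member known mainly for fatty acid genes. Its RNA was 446 CPM (255 counts) in starved control cells, 725 CPM (329 counts) in starved and 1296 CPM (970 counts) in fed METTL16 shRNA cells, each step larger than counting error. Footprints followed the same order at 267, 759 and 940.1 CPM (247, 365 and 611 counts). Between starved METTL16 shRNA and control cells SREBF1 differed more in footprints (log2 ratio 1.50, 1.27 to 1.74) than in RNA (0.70, 0.46 to 0.94). Between starved and fed METTL16 shRNA cells the RNA ratio was -0.84 (-1.02 to -0.65) and the footprint ratio -0.31 (-0.50 to -0.12). The table counts a whole gene, so the transcripts from the gene's separate promoters, SREBP-1a and SREBP-1c, were not told apart. MIR33B, which lies within SREBF1, had at most 1 count in a library.

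SREBF2 (ENSG00000198911.12, chr22:41833105-41907305) encodes SREBP-2, known mainly for cholesterol genes. Its RNA was 207, 282 and 361 CPM (118, 128 and 270 counts) in starved control, starved METTL16 shRNA and fed METTL16 shRNA cells. Footprints were 102, 114 and 182 CPM (94, 55 and 118 counts), and the starved libraries could not be told apart. The footprint ratio between these, 0.17 on the log2 scale (-0.34 to 0.66), was the lowest of the group, and it was -0.18 with total counts as the scale. In complete medium SREBF2 was the higher: the starved to fed ratio was -0.35 (-0.67 to -0.05) in RNA and -0.66 (-1.16 to -0.19) in footprints. MIR33A, hosted in SREBF2, had 0 to 3 counts.

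ACLY (ENSG00000131473.17, chr17:41866917-41930545), the entry enzyme from citrate, had nearly level RNA: 821, 831 and 861 CPM (469, 377 and 645 counts) in starved control, starved METTL16 shRNA and fed METTL16 shRNA cells. Its footprints were not level, at 647, 919 and 1245 CPM (598, 442 and 809 counts). The 3 footprint intervals do not overlap, and the 3 RNA intervals do. Between starved METTL16 shRNA and control cells the log2 ratio was 0.02 (-0.18 to 0.22) in RNA, which turned to -0.11 with total counts, and 0.51 (0.32 to 0.69) in footprints. Starved against fed METTL16 shRNA cells gave -0.05 (-0.24 to 0.13) in RNA and -0.44 (-0.61 to -0.27) in footprints.

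ACACA (ENSG00000278540.5, chr17:37084992-37406836), the committed step of the pathway, was the most weakly sampled enzyme. RNA was 177, 185 and 203 CPM (101, 84 and 152 counts), and the 3 intervals overlap. Footprints were 73.6, 116 and 211 CPM (68, 56 and 137 counts), highest in complete medium. The footprint ratio between starved METTL16 shRNA and control cells was 0.66 (0.12 to 1.19), and that between starved and fed METTL16 shRNA cells -0.85 (-1.33 to -0.40). In RNA the same ratios were 0.07 (-0.37 to 0.50) and -0.13 (-0.54 to 0.26). Its relative ACACB had 4 to 11 counts per library.

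FASN (ENSG00000169710.9, chr17:82078338-82098236), the palmitate synthase, ran one way in RNA and the other in footprints. RNA was 1175 CPM (671 counts) in starved control cells, 1530.0 CPM (694 counts) in starved METTL16 shRNA cells and 889.5 CPM (666 counts) in fed METTL16 shRNA cells. The fed library was lowest in RNA and highest in footprints, which were 428, 773 and 1442 CPM (395, 372 and 937 counts). Between starved METTL16 shRNA and control cells the log2 ratio was 0.38 (0.23 to 0.54) in RNA and 0.85 (0.65 to 1.06) in footprints. Between starved and fed METTL16 shRNA cells it was 0.78 (0.63 to 0.94) in RNA and -0.90 (-1.08 to -0.72) in footprints. FASN and INSIG1 were the only genes of the 9 with a positive RNA ratio in that comparison, under each of the scalings run.

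SCD (ENSG00000099194.6, chr10:100347233-100364826), the stearoyl-CoA desaturase that makes oleate, had the highest counts of the group in every library. RNA was 2913 CPM (1664 counts) in starved control cells, 7683 CPM (3485 counts) in starved METTL16 shRNA cells and 11559.9 CPM (8655 counts) in fed METTL16 shRNA cells. Footprints were 2094, 6180 and 7935 CPM (1934, 2973 and 5157 counts). Every step was beyond counting error in both assays. The log2 ratio of starved METTL16 shRNA to control cells was 1.40 (1.31 to 1.48) in RNA, with 32 of 3784 protein-coding genes higher, and 1.56 (1.48 to 1.64) in footprints, with 17 of 3357 higher. Starved against fed METTL16 shRNA cells gave -0.59 (-0.65 to -0.53) in RNA and -0.36 (-0.43 to -0.30) in footprints. Per length, in the TPM of each input library, SCD ranked 38th, 16th and 14th among protein-coding genes with 837, 1583 and 2718 TPM. SCDP1, a processed pseudogene of SCD, had 0 to 30 counts per library.

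FADS1 (ENSG00000149485.19, chr11:61799627-61817003) and FADS2 (ENSG00000134824.14, chr11:61816203-61867354) lie head to head on opposite strands and overlap by 801 bases. Whether counting used the strand is not given in the sources used here, so reads from the overlap are uncertain for both. FADS1 RNA was 1076, 1704 and 2162 CPM (615, 773 and 1619 counts) in starved control, starved METTL16 shRNA and fed METTL16 shRNA cells, and its footprints were 592, 1021 and 1405 CPM (547, 491 and 913 counts). Both assays had the same order, with each step larger than counting error. The log2 ratio of starved METTL16 shRNA to control cells was 0.66 (0.51 to 0.82) in RNA and 0.79 (0.61 to 0.96) in footprints. Starved against fed METTL16 shRNA cells gave -0.34 (-0.47 to -0.22) and -0.46 (-0.62 to -0.30).

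FADS2 had RNA of 1134, 1451 and 2657 CPM (648, 658 and 1989 counts) and footprints of 1140.1, 1686 and 3049.7 CPM (1053, 811 and 1982 counts), again lowest in control cells and highest in complete medium. Its ratios between starved METTL16 shRNA and control cells were 0.35 (0.20 to 0.51) in RNA and 0.56 (0.43 to 0.70) in footprints. Between starved and fed METTL16 shRNA cells RNA and footprints differed alike, at -0.87 (-1.0 to -0.74) and -0.85 (-0.98 to -0.74). FADS3, the neighbouring family member, had 13 to 51 counts and was not compared.

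Taking the 9 genes together for METTL16 shRNA against control shRNA, both starved, 9 of 9 RNA ratios were above 0, and 7 had an interval wholly above 0, as had 15.8% of all protein-coding genes measured. The median RNA ratio was 0.45, against 0.03 over all protein-coding genes. Only SCD was called higher in RNA and no gene lower, where 4.31% of 3784 protein-coding genes were called higher and 4.65% lower. In footprints INSIG1, SREBF1 and SCD were called higher, 3 of 9, and none lower, where 2.92% and 3.04% of 3357 genes were. The median footprint ratio was 0.79, against -0.00 over all protein-coding genes, and 8 of 9 intervals lay above 0, as did 15.5% of all protein-coding genes measured. The ratios of ACLY and ACACA in RNA and of SREBF2 in footprints turned negative with total counts, and more did under the TPM scaling as given above.

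**Figure D2:**
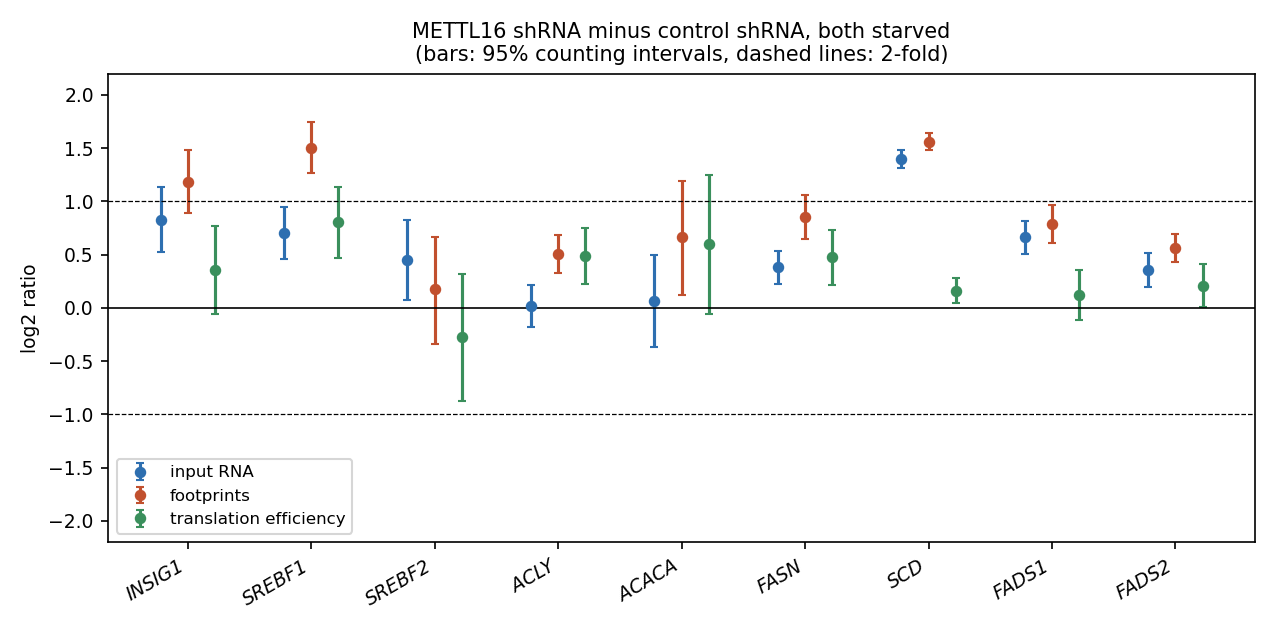
Log2 ratio of METTL16 shRNA to control shRNA, both starved, for input RNA, footprints and translation efficiency, with 95% counting intervals. SCD reaches 2-fold in RNA (1.40) and, with INSIG1 and SREBF1, in footprints, and SREBF2 has the lowest footprint ratio (0.17).

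Starved against fed METTL16 shRNA cells used the same starved libraries, so its values are given beside those of the first comparison and not correlated with them. Of the 9 RNA ratios 2 were above 0 (INSIG1 and FASN), and the median was -0.34, against 0.01 over all protein-coding genes. None was called, where 2.77% of genes were called higher and 4.1% lower. In footprints 8 of 9 intervals lay below 0, as did 19.0% of all protein-coding genes, with a median of -0.46 against 0.01 over all genes. INSIG1 was the exception and the only gene called, 1 of 9 higher and 0 lower, where 5.15% and 6.52% of genes were. Under the TPM scaling SREBF1 and FADS2 in RNA and ACACA, FASN and FADS2 in footprints also passed 2-fold, all lower in starved cells. That scaling moved the protein-coding median itself by -0.19 in RNA and -0.28 in footprints, and 7.90% and 12.5% of genes were then called lower.

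**Figure D3:**
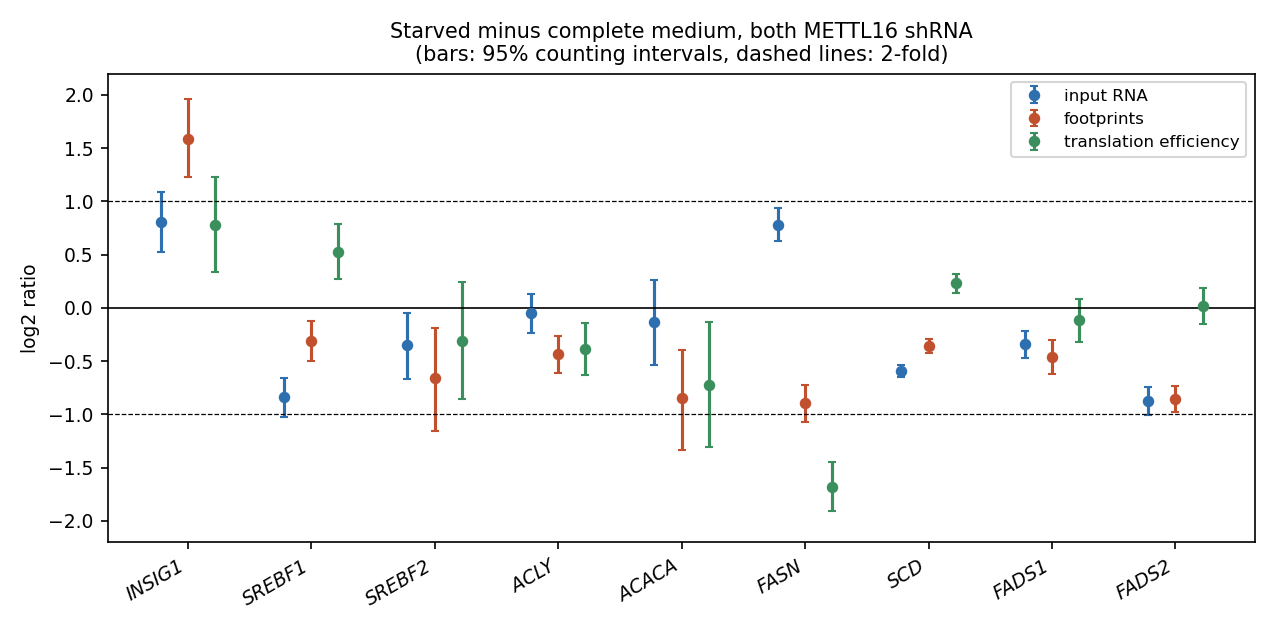
Log2 ratio of starved to complete medium, both METTL16 shRNA, for input RNA, footprints and translation efficiency, with 95% counting intervals. INSIG1 lies above 0 in all 3 measures, while FASN has a positive RNA ratio (0.78) and a negative footprint ratio (-0.90).

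Fed METTL16 shRNA and starved control cells differ in both shRNA and medium, so the 2 cannot be told apart there and only the order of levels is given. In RNA the order was fed knockdown, starved knockdown, control for 7 of 9 genes, with neighbours separated beyond counting error for SREBF1, SREBF2, SCD, FADS1 and FADS2 but not for ACLY and ACACA. In footprints it was the same order for 8 of 9 genes, all but INSIG1, though the starved libraries were not separated for SREBF2, whose ratio between them turned to -0.18 with total counts.

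Translation efficiency, the ratio of scaled footprints to scaled RNA, placed most of the 9 genes below the middle of protein-coding genes. Relative to that median, the log2 level of FASN was -1.40 (-1.58 to -1.22) in starved control cells, -0.90 (-1.08 to -0.72) in starved METTL16 shRNA cells and 0.79 (0.65 to 0.93) in fed METTL16 shRNA cells. FASN was thus above 6.35%, 16% and 87.6% of the 2833 genes measured. ACACA, the step before FASN, went from -1.20 to -0.58 and 0.15 in the same order, and ACLY from -0.29 to 0.23 and 0.62. All 3 enzymes of palmitate synthesis were therefore highest in complete medium and lowest in control cells, though the intervals of ACACA overlap between the starved libraries.

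The other genes ordered differently. INSIG1 was at -0.49, -0.10 and -0.87, and SREBF1 at -0.68, 0.15 and -0.37, both highest in starved METTL16 shRNA cells, though for INSIG1 the intervals of the starved libraries overlap. SREBF2 stayed low at -0.96, -1.21 and -0.89, with overlapping intervals. Among the desaturases SCD was at -0.42, -0.23 and -0.45, FADS1 at -0.81, -0.65 and -0.53, and FADS2 at 0.06, 0.30 and 0.29. The desaturases therefore spanned a narrower range over the 3 conditions than FASN did.

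**Figure D4:**
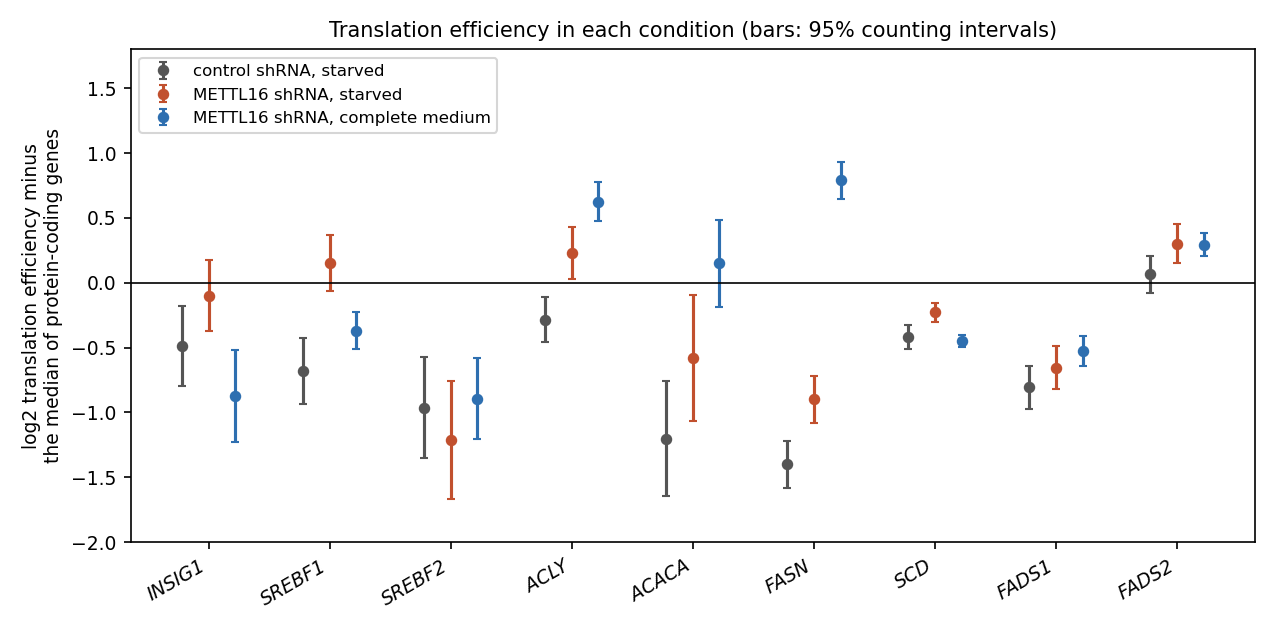
Log2 translation efficiency of each gene minus the median of 2833 protein-coding genes in the same condition, with 95% counting intervals. FASN, ACACA and ACLY are lowest in starved control and highest in fed METTL16 shRNA cells, and FASN spans -1.40 to 0.79.

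As a ratio of starved to fed METTL16 shRNA cells, FASN translation efficiency was -1.68 on the log2 scale (-1.91 to -1.45), and 72 of 2833 genes were lower. It was the only call, 1 of 9 lower and 0 higher, where 9.46% of genes were called lower and 6.88% higher. FASN kept this call under every scaling run. With the starved knockdown's input replaced by that of the starved control it was -1.30. That value also holds the RNA difference between the starved cells, so it is no separate check. ACACA had -0.72 (-1.31 to -0.13), ACLY -0.39 (-0.64 to -0.14), SREBF1 0.53 (0.27 to 0.79) and INSIG1 0.78 (0.33 to 1.23). With the replaced input INSIG1, SREBF1 and SCD passed 2-fold at 1.61, 1.23 and 1.63, where 11% of genes were called higher.

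For METTL16 shRNA against control, both starved, none of the 9 was called in translation efficiency, where 4.8% of genes were called higher and 5.47% lower. SREBF1 had the highest ratio at 0.80 (0.47 to 1.13), and it was -0.03 when the input of fed METTL16 shRNA cells stood in for that of starved ones. ACLY had 0.49 (0.22 to 0.75), FASN 0.47 (0.22 to 0.73), SCD 0.16 (0.04 to 0.28) and SREBF2 -0.28 (-0.88 to 0.32). With the replaced input INSIG1 and FASN passed 2-fold at 1.16 and 1.26, where 5.08% of genes were called higher.

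In the authors' deposited table the translation efficiency of FASN was 0.206 in starved control, 0.191 in starved METTL16 shRNA and 0.650 in fed METTL16 shRNA cells. The authors' deposited table gave INSIG1 0.388, 0.332 and 0.204 and SREBF1 0.339, 0.395 and 0.291 in the same order. Both starved values of FASN thus lay well under the fed one on either scale, while the step between the starved cells pointed the other way in the authors' deposited table. As log2 ratios of METTL16 shRNA to control, the authors' deposited table gave FASN -0.11, ACLY -0.09, INSIG1 -0.22, SCD -0.42, FADS1 -0.46 and FADS2 -0.37, all opposite in sign to the TMM-scaled ratios. The deposited values are the same counts on another scale, so nearly the same shift applies to every gene. On that scale the protein-coding median was at -0.45 in RNA and -1.06 in footprints. These sign changes are thus not particular to the named genes. With total counts the translation efficiency ratio of SCD was -0.06, with FADS1 at -0.10 and FADS2 at -0.02.

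The rest of the pathway was read from 6 lists of genes. All list ratios are on the TMM scale. The TPM scaling put the protein-coding median of starved METTL16 shRNA against control cells at -0.45 in RNA and -1.06 in footprints. Of 12 measured cholesterol synthesis enzymes, 5 were called higher in RNA and 0 lower in starved METTL16 shRNA against control cells, among them MSMO1 at 1.50, IDI1 at 1.39, SQLE at 1.17 and HMGCS1 at 1.14. In footprints 4 of 14 were called higher, among them MSMO1 at 1.21, SQLE at 1.14 and HMGCS1 at 1.10. Over all protein-coding genes 4.31% were called higher in RNA and 2.92% in footprints. The list's medians were 0.72 in RNA and 0.45 in footprints, against 0.03 and -0.00 over all protein-coding genes. EBP had the lowest RNA ratio, -0.45 (-1.21 to 0.27).

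Sterol uptake and transport genes split. In RNA 3 of 7 were called higher, among them TMEM97 at 1.32 and ABCA1 at 1.04, where 4.31% of all protein-coding genes were. In footprints it was also 3 of 7, among them ABCA1 at 1.24, where 2.92% of all protein-coding genes were. NPC1, which moves cholesterol out of lysosomes, had -0.65 (-1.04 to -0.28) in RNA and -0.32 (-0.56 to -0.10) in footprints. In RNA none was called among 10 genes of sterol sensing and SREBP processing, 12 other genes of fatty acid synthesis and elongation, 8 of acyl-CoA and glycerolipid synthesis and 7 of fatty acid oxidation. Their RNA medians were -0.06, 0.19, 0.37 and 0.07. SCAP, the escort of SREBPs, had -0.36 (-0.97 to 0.22). In footprints SYVN1, a ubiquitin ligase of the endoplasmic reticulum, was the only call of those lists, at 1.31 (0.86 to 1.76), 1 of 8 sterol sensing genes. The oxidation list's footprint median was -0.20, with CPT1A, the carnitine shuttle enzyme, highest at 0.50 (0.04 to 0.95).

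Starved against fed METTL16 shRNA cells gave few calls in these lists. Over all protein-coding genes 2.77% were called higher and 4.1% lower in RNA, and 5.15% and 6.52% in footprints. None of 12 cholesterol synthesis enzymes was called in RNA (median 0.11) and none of 14 in footprints (median -0.11). The sterol sensing list had an RNA median of -0.65, with SYVN1 called lower at -1.60 (-2.40 to -0.93), and a footprint median of 0.02, with MBTPS2, an intramembrane protease that releases SREBPs, called lower at -1.51 (-2.41 to -0.76). In the other fatty acid list SCD5, a second stearoyl-CoA desaturase, was called lower in RNA at -1.19 (-2.15 to -0.39) and ELOVL5, an elongase, in footprints at -1.18 (-1.51 to -0.87). PLIN2, a coat protein of lipid droplets, was called higher in footprints at 1.06 (0.56 to 1.58) and in translation efficiency at 1.86 (1.04 to 2.68). Its RNA ratio ran the other way, at -0.80 (-1.55 to -0.13), and was not called. TMEM97 at -1.08 (-1.44 to -0.74) and HADHA, of fatty acid oxidation, at -1.15 (-1.73 to -0.62) were called lower in footprints.

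Translation efficiency gave scattered calls over the same 6 lists, each with 6 to 11 genes measured. Over all protein-coding genes 4.8% were called higher and 5.47% lower between starved METTL16 shRNA and control cells. Between starved and fed METTL16 shRNA cells it was 6.88% and 9.46%. In starved METTL16 shRNA against control cells SYVN1 was called higher at 1.59 (0.68 to 2.50), and IDI1 at -1.01 (-1.83 to -0.19) and the acyltransferase AGPAT5 at -1.06 (-1.90 to -0.22) were called lower. Besides PLIN2, the starved to fed comparison had SYVN1 at 1.49 (0.71 to 2.27) and the elongase ELOVL1 at 1.18 (0.63 to 1.73) called higher. NPC2, a lysosomal cholesterol carrier, was called lower at -1.06 (-1.62 to -0.50).

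**Figure D5:**
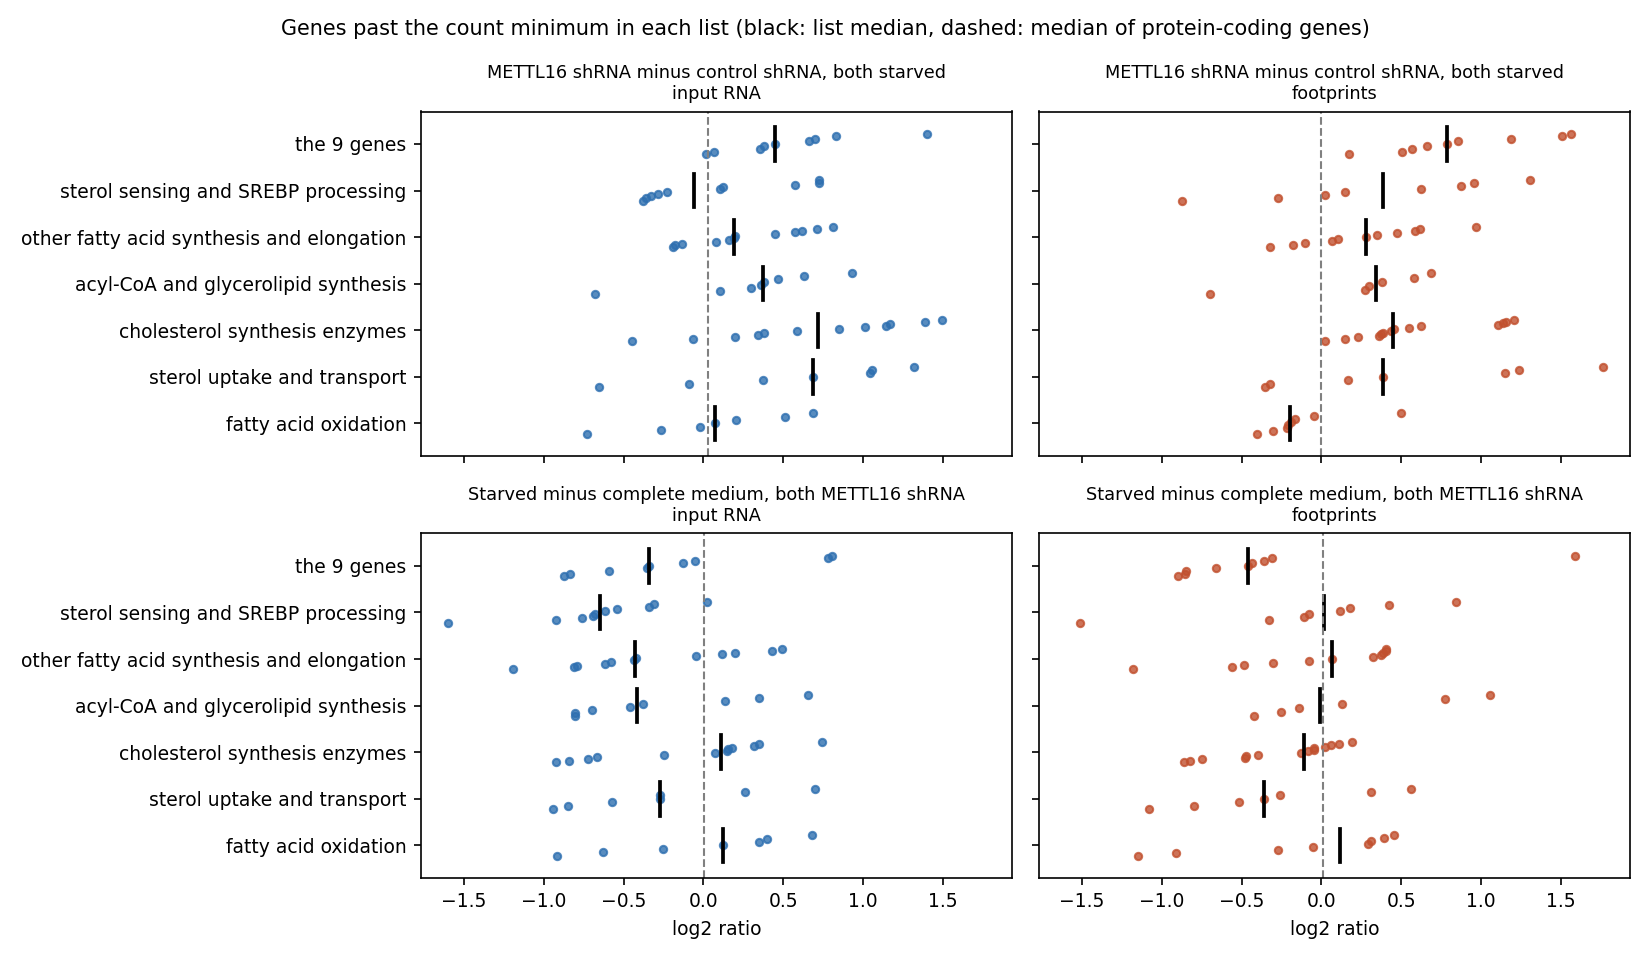
Log2 ratios of the 9 genes and of 6 lists in input RNA (left) and footprints (right) for METTL16 shRNA against control, both starved (top), and starved against complete medium, both METTL16 shRNA (bottom). Each point is a gene past the count minimum; the cholesterol synthesis list has a median of 0.72 in RNA at top left and 0.11 at bottom left.

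Over the 6 libraries, the genes whose log2 levels, centred within each assay, lay nearest to SCD among 2832 protein-coding genes were EPHX1 (Euclidean distance 0.17) and the epithelial cadherin CDH1 (0.22). EPHX1 had 85, 167 and 424 input counts and 223, 353 and 689 footprint counts in starved control, starved METTL16 shRNA and fed METTL16 shRNA cells. CDH1 was itself called higher in starved METTL16 shRNA against control cells, at 1.52 (1.03 to 2.06) in RNA and 1.70 (1.35 to 2.05) in footprints. Of the other 8 genes SREBF1 came 8th at 0.51, FADS1 49th and FADS2 77th, while INSIG1 came 1758th. Nearest to INSIG1 were SOD2 (0.32), PLK2 (0.37) and SRP9 (0.39). SOD2 had 123, 193 and 161 input counts and 326, 292 and 157 footprint counts, the fed library being lowest in footprints as for INSIG1. The nearest of the other 8 genes to INSIG1 was ACLY, in place 1658.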

How the data were processed

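Ribosome footprints and input RNA were counted in 6 A549 libraries, 1 per condition and assay, grouped by title. Tools named in the submitters' processing notes are STAR 2.7.5c, featureCounts 2.0.1, cutadapt 2.8 and Bowtie2 2.2.5, with the build GRCh38. The authors deposited raw counts per gene; 3 broken lines were left out. The authors also deposited TPM values, listed for genes with input TPM above 1, and their ratio of footprint to input TPM as translation efficiency; those TPM values equal count over length, rescaled, within 0.1%.

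Counts were scaled with TMM (edgeR 4.0.16, R 4.3.3) from genes with a mean of at least 30 counts, and log2 ratios used a pseudocount of 0.5. Intervals (95%) are Clopper-Pearson conditional binomial or, for translation efficiency, Poisson delta-method. The code was tested on simulated counts. Alternatives were other scalings (DESeq2 1.42.0 among them), minimums, a pseudocount of 1, replaced inputs and the deposited ratios; scaling over all genes and TPM scaling were added after seeing the data. The genes and lists were chosen with earlier results of these data known. Named genes are the 9, METTL16, the 2 highest and 2 lowest of each list, other called list genes (chosen after their values were seen), and the 3 nearest to SCD and INSIG1. Results of a few genes that this rule names are not reported here. Python 3.11.15 was used.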

Additional observations from a re-analysis of the deposited data

How the results depend on the processing

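Of 450 single-gene values under an alternative, 389 lay inside the reported interval and 61 outside, and no called ratio changed sign. A changed count minimum cannot alter a single gene's ratio, so the values under those settings lay inside by construction. Of 100 counts and medians, 86 stayed in their range. For METTL16 shRNA against control, total counts gave a footprint median of 0.44. Under the TPM scaling, chosen after seeing the data, 0 genes were called in RNA and 0 in footprints, with medians of -0.0298 and -0.28, beside shifts of the protein-coding median of -0.48 and -1.06. For starved against fed METTL16 shRNA cells the same scaling called 2 genes in RNA and 4 in footprints, with medians of -0.53 and -0.74. In translation efficiency, replacing the starved knockdown's input called 2 genes with a median of -0.0318 against control and 4 with a median of 0.37 against fed cells; the authors' deposited table gave a median of -0.22 against control. A replaced input comes from another condition, so each such ratio also holds the RNA difference between the exchanged conditions. Those values are therefore not translation efficiencies of a single condition. Other scalings, count minimums of 10 or none and a pseudocount of 1 left the number of called genes in its range in each comparison and measure. Leaving out a replicate was not possible with 1 library per group. For the same reason there were no replicates to pair. At these depths 3 counts equal 3.25 to 6.61 CPM.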
